A study of Homo sapiens with 6 samples.

Results

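Polycomb repressive complex 2 (PRC2) was examined at the transcript level in U2OS, a human osteosarcoma cell line, with and without the gene MBTD1. The genes described are 10 rows of the deposited intensity table, chosen by symbol and not by their values, of 34602 gene rows in all. They comprise 6 genes of the core complex (EZH1, EZH2, SUZ12, EED, RBBP4 and RBBP7) and 4 genes of accessory subunits (JARID2, PHF1, MTF2 and PHF19). Each of 3 control clones and 3 clones with MBTD1 inactivated by CRISPR/Cas9 was measured once on an Illumina bead array, from cells kept untreated in DMEM with 10% FBS. The sample titles call the controls "control KO", other labels say control clones, and the design description refers to wild type. Their derivation is not stated, and a clone descends from 1 cell, so variation between clones is part of every difference. Nothing says whether clones were processed on different days, so p-values reflect only the variation among these 6 samples.

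PRC2 is the enzyme complex that methylates histone H3 at lysine K27 (H3K27), a mark of stably silenced genes. EZH1 or EZH2 supplies the catalytic SET domain, SUZ12 is the scaffold, EED binds the methylated product and stimulates the enzyme, and RBBP4 or RBBP7 is a histone-binding WD40 protein shared with other chromatin complexes. Complexes come in classes, one carrying a Polycomb-like protein (PHF1, MTF2 or PHF19), which recruits it to CpG islands, and one carrying JARID2 with AEBP2. EZH2 is the paralog of dividing cells and a target of the E2F factors, while EZH1 is also found in resting cells. MBTD1, the inactivated gene, is a reader of methylated histone tails in the TIP60/NuA4 acetyltransferase complex.

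The 300 bases around the annotated start of each gene, 250 before and 50 after it, were searched for the E2F letter runs TTTGGCGC, TTTCCCGC, TTTCGCGC and TTTGCCGC on both strands. All 10 genes matched a promoter entry in the RefSeq table (build GRCh38.p14), with 15 windows among them. A run occurred in 5 of the 15 windows, 33.3%, against 3.31% of all 35116 windows of the table. The share was 4.98% in the 10073 windows of genes whose expression was tested here, as that of all 10 was. In a list of S phase genes, 12 of 19 windows held a run. The 5 windows that hold one are shown because these genes include both catalytic paralogs, the scaffold and a pair of Polycomb-like genes, and capitals mark the run, which in EZH1, MTF2 and PHF19 is on the opposite strand and appears as its reverse complement.
EZH2, chr7:148884242-148884541, minus strand: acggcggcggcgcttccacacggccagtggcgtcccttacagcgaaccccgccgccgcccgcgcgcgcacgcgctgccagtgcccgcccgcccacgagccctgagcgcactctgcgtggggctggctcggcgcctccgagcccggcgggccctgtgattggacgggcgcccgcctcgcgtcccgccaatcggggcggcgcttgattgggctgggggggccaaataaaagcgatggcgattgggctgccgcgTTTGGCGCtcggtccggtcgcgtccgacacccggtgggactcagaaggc
SUZ12, chr17:31936757-31937056, plus strand: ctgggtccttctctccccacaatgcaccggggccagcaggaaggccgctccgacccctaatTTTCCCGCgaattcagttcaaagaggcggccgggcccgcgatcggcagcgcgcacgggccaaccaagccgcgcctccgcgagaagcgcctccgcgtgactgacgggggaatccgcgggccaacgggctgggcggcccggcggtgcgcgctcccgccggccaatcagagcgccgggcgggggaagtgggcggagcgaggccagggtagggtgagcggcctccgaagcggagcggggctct
EZH1, chr17:42744991-42745290, minus strand: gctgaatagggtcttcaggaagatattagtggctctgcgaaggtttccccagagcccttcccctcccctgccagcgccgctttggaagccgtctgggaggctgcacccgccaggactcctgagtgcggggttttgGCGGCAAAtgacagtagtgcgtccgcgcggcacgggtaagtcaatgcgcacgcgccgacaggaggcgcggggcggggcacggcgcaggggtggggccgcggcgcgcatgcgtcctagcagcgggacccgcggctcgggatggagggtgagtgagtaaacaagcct
MTF2, chr1:93079033-93079332, plus strand: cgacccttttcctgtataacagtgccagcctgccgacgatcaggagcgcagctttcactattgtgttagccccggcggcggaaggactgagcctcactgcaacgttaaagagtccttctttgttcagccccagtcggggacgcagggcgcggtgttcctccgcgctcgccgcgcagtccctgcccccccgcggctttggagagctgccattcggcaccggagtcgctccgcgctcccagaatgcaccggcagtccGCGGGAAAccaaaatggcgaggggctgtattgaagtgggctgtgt
PHF19, chr9:120877139-120877438, minus strand: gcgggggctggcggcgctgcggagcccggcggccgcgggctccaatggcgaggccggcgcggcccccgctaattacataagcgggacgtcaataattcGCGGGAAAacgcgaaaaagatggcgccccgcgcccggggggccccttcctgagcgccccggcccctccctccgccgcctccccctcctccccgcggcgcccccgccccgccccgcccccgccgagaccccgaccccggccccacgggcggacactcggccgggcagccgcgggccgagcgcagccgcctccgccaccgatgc
In EZH2 and MTF2 the run lay just after the annotated start, and in SUZ12, EZH1 and PHF19 it lay before it. The simpler run CCAAT occurred in 10 of the 15 windows, 66.7%, against 34.6% of all windows and 35.2% of those of tested genes. The EZH2 window shown held 4 copies. A run of letters is a description of the sequence, and binding was not measured.

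Levels are log2 values of background-corrected, quantile-normalized intensities, and an offset of 16 intensity units compresses differences of dim genes. Background had a mean of 81.7 to 84.2 units on the 6 arrays, and 12982 to 13511 gene rows per array had a detection p under 0.05 against it. From the mean of the other clones of its group, each control clone differed at least 2-fold in 2 to 14 genes and each knockout clone in 77 to 145. MBTD1 itself measured 5.06, 5.05 and 5.05 in the control clones, against 5.17, 4.99 and 4.62 in the knockout clones, a difference of -0.13 (SE 0.15; limma adjusted p = 0.676). The position of its probes relative to the edit is unknown here, so this value checks nothing about the edit. Of 11 osteoblast and mesenchymal markers, 6 to 8 per array lay above background, with ALPL, COL1A1, SPARC, SPP1 and VIM above it on all 6 arrays, whereas RUNX2 and SP7 were above it on 1 array each and COL1A2 on 0. RUNX2 measured 4.62 to 5.26 over the arrays and FN1 4.29 to 4.65, yet FN1 was above background on 5 arrays. Detection thus does not follow level from row to row, and RUNX2 is not shown to be absent. The summed log2 level of the 11 markers was 67.7 to 69.0 in the control clones, against 65.4 to 67.6 in the knockout clones. Of the 8 tested, 0 passed, 5 differences were negative and 3 positive (COL1A1 0.35, FN1 0.05 and BGLAP 0.04). Over all tested genes 1.57% passed and 53.8% of differences were negative. SPP1, IBSP and VIM were lower in every knockout clone than in every control clone, as were 13.7% of all tested genes. IBSP was above background on only 3 arrays, the fewest the filter admits. It measured 4.51, 4.48 and 4.53 in the control clones, against 4.22, 4.32 and 4.37 in the knockout clones, so its separation rests on a row near background. IBSP may have passed the filter through the control clones, the group where it measured higher, so its separation is no independent result. SPP1, a secreted bone matrix protein, measured 6.07, 6.42 and 6.46 in the control clones, against 5.00, 4.62 and 5.68 in the knockout clones (difference -1.22, SE 0.25; limma adjusted p = 0.0521). VIM, a mesenchymal filament protein, measured 11.61, 12.15 and 11.76, against 11.04, 11.18 and 11.16 (difference -0.71, SE 0.15; limma adjusted p = 0.0564). Both differences were larger than that of any PRC2 gene, and their part in the PRC2 values was not tested. SPP1, IBSP and VIM were named after their values were seen. Among markers of other cells, CDH1, KRT19, KRT5, PTPRC, CD3E, PECAM1 and CDH5 were above background on 0 arrays, while EPCAM and CD68 were above it on all 6.

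All 10 PRC2 genes passed the filter (detection p under 0.05 on at least 3 arrays) and were tested among 13145 genes. Of the 10, 0 passed limma's test at an adjusted p of 0.05, where 1.57% of all tested genes passed (1.20% higher and 0.373% lower), and 3 of the 10 had an unadjusted p under 0.05. That count was 5 without control 1, 1 without control 2, 1 after common-median scaling and 5 with no filter. The 3, RBBP4, RBBP7 and MTF2, measured lower in the knockout clones; the background shares at an unadjusted p under 0.05 were 20.4% of all tested genes, 10.1% higher and 10.3% lower. In bulk RNA, fewer cells expressing a gene and less RNA per cell cannot be told apart. Differences were negative for 7 genes and positive for 3, EZH1, JARID2 and PHF1. The median difference was -0.21 over the 10 genes and -0.02 over all tested genes, of which 53.8% were negative. Control and knockout clones did not overlap in 5 of the 10 genes, lower in 4 and higher in 1, against 25.9% of all tested genes (13.7% lower and 12.2% higher).

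**Figure D1:**
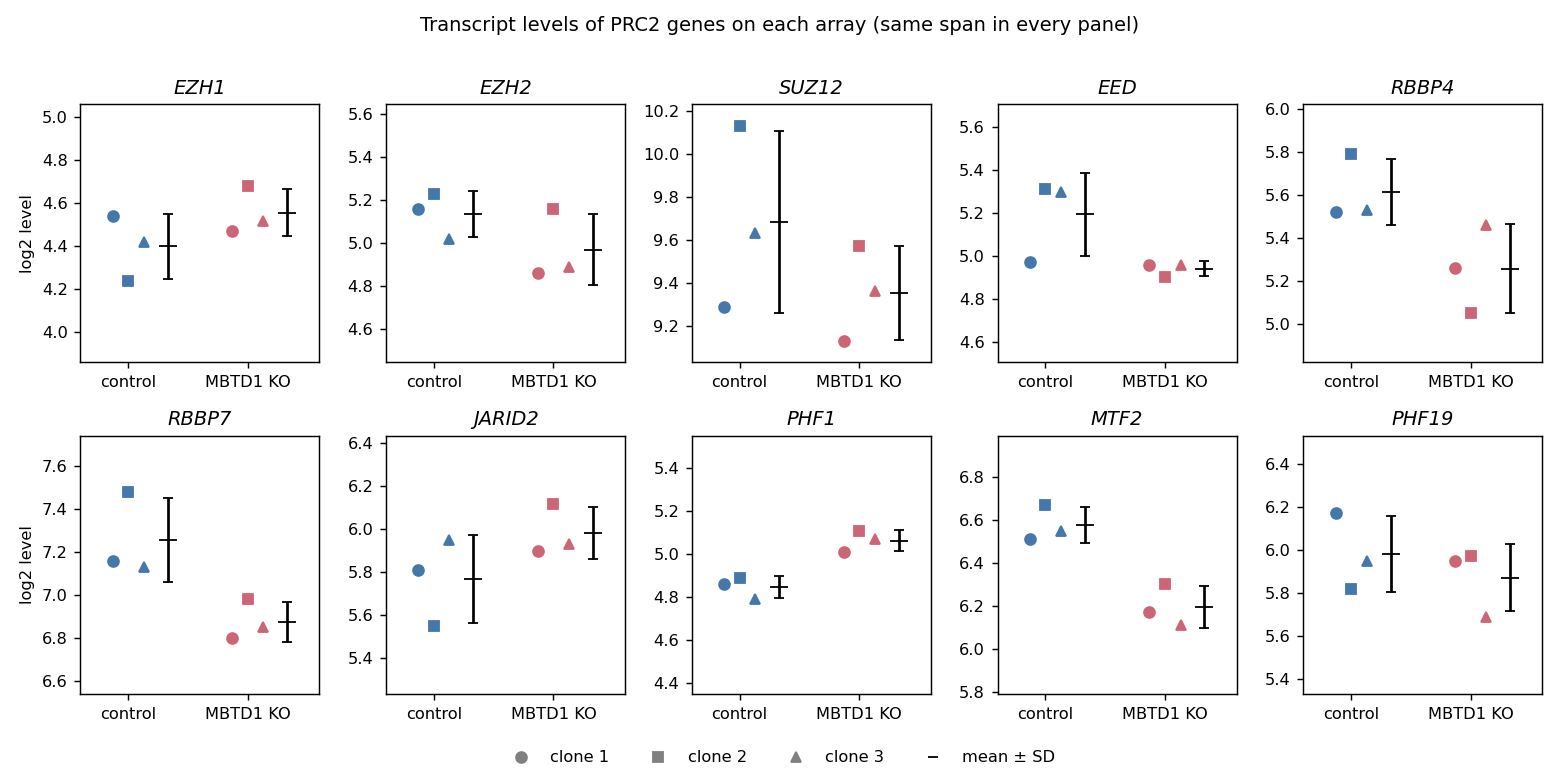
Log2 level (vertical axis) of each PRC2 gene on the 3 control arrays and the 3 MBTD1 knockout arrays; marker shapes give the clone number and bars the mean ± SD (n = 3). Control and knockout points are separate for RBBP4, RBBP7, MTF2 and PHF1, separate by less than 0.01 for EED, and overlap for the other 5 genes.

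The catalytic pair differed in opposite directions without passing. EZH2 measured 5.16, 5.23 and 5.02 in the control clones, against 4.86, 5.16 and 4.89 in the knockout clones. Knockout clone 2 lay at the level of control 1, so the groups overlap. The difference was -0.17 (SE 0.13; 95% interval -0.46 to 0.12; limma adjusted p = 0.516), and -0.11 without knockout 1 or -0.26 without knockout 2. EZH1 measured 4.54, 4.24 and 4.42 in the control clones, against 4.47, 4.68 and 4.52 in the knockout clones, with control 1 above 2 of the knockout clones. Its difference was 0.15 (SE 0.13; 95% interval -0.13 to 0.44; limma adjusted p = 0.541), and 0.0741 without control 2 or 0.0911 without knockout 2.

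Both catalytic genes were close to background, which limits what their rows can show. EZH1 stood 0.883 to 10.2 intensity units over the background mean and was called above background (detection p under 0.05) in 1 of 3 controls and all 3 knockout clones. The EZH1 row thus passed the filter through the knockout clones, the group where it measured higher, so its positive difference is no independent result. It was read from 13 to 24 beads, and its excess over background was 0.286 to 3.72 times the standard error of the bead signals. EZH2 stood 12.7 to 24.2 units over background, 5.07 to 8.23 times the standard error of its bead signals. By its detection p it was above background in 3 control and 2 knockout clones, the exception being knockout 1 (detection p 0.0676). The bead numbers of the EZH2 row become whole only when multiplied by 3, as for EED, RBBP4, PHF1 and PHF19, so these rows average several probes. A bright and a dark probe cannot be told apart in such a row.

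SUZ12, the scaffold, was read well above background, by 571 to 1005 intensity units, and had the widest spread between control clones of the 10 genes. It measured 9.29, 10.13 and 9.63 in the control clones, against 9.13, 9.57 and 9.36 in the knockout clones. Control 2 alone stood above every other array and control 1 stood below 2 of the knockout clones. The SD was 0.42 in the control clones, against 0.22 in the knockout clones, and the difference was -0.33 (SE 0.21; 95% interval -0.81 to 0.15; limma adjusted p = 0.420). Without control 2 the difference was -0.11, without control 1 it was -0.53, and after scaling the arrays to a common median it was -0.09. A separate row for the pseudogene SUZ12P stayed between 4.24 and 4.39 on all arrays, and signal shared between the gene and its near-identical copy cannot be told apart, so the SUZ12 value is uncertain to that extent.

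EED, the product-binding subunit, measured 4.97, 5.31 and 5.30 in the control clones, against 4.96, 4.90 and 4.96 in the knockout clones. The knockout clones were close together (SD 0.03) just under control 1, while control clones 2 and 3 stood above them. The difference was -0.25 (SE 0.13; 95% interval -0.54 to 0.04; limma adjusted p = 0.313). Its intensity was 13.9 to 26.8 units over background.

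The paralogs RBBP4 and RBBP7, like EED, were lower in every knockout clone than in every control clone, and neither passed. RBBP7 measured 7.16, 7.48 and 7.13 in the control clones, against 6.80, 6.98 and 6.85 in the knockout clones. The lowest control was 0.16 above the highest knockout clone. The difference was -0.38, a 1.30-fold lower value (SE 0.13; 95% interval -0.68 to -0.08; limma adjusted p = 0.154). RBBP4 measured 5.52, 5.79 and 5.53 in the control clones, against 5.26, 5.05 and 5.46 in the knockout clones, a difference of -0.36 or 1.28-fold (SE 0.14; 95% interval -0.68 to -0.03; limma adjusted p = 0.203). Knockout clone 3 was within 0.06 of control 1. RBBP4 stood 17.9 to 44.6 intensity units over background and RBBP7 95.5 to 177. The offset therefore compresses the RBBP4 difference more, and the 2 folds are not on equal terms. The row LOC648695, described in the file as similar to RBBP4, lay between 6.04 and 7.14 but was above background on 1 array by its detection p and was not tested, and signal shared with RBBP4 cannot be told apart.

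Among the Polycomb-like genes MTF2 and PHF1 separated the groups in opposite directions. MTF2 measured 6.51, 6.67 and 6.55 in the control clones, against 6.17, 6.30 and 6.11 in the knockout clones. Every knockout clone was at least 0.22 under every control clone. The difference was -0.38, 1.31-fold lower (SE 0.11; 95% interval -0.64 to -0.13; limma adjusted p = 0.110), the smallest p of the complex. PHF1 measured 4.86, 4.89 and 4.79 in the control clones, against 5.01, 5.11 and 5.07 in the knockout clones, all above the controls. The difference was 0.22, 1.17-fold higher (SE 0.11; 95% interval -0.02 to 0.46; limma adjusted p = 0.287). PHF1 was dim, at 11.0 to 19.4 units over background, so on this scale its difference is compressed.

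PHF19 and JARID2 overlapped between the groups. PHF19, the other Polycomb-like gene, measured 6.17, 5.82 and 5.95 in the control clones, against 5.95, 5.97 and 5.69 in the knockout clones, a difference of -0.11 (SE 0.14; 95% interval -0.43 to 0.20; limma adjusted p = 0.696). The PHF19 difference was -0.0185 without control 1, -0.0216 without knockout 3 and -0.19 without control 2. JARID2, which helps to recruit the complex and to start methylation, measured 5.81, 5.55 and 5.95 in the control clones, against 5.90, 6.12 and 5.93 in the knockout clones. Control 3 lay above knockout clones 1 and 3. The JARID2 difference was 0.21 (SE 0.14; 95% interval -0.10 to 0.53; limma adjusted p = 0.426), and 0.10 without control 2.

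**Figure D2:**
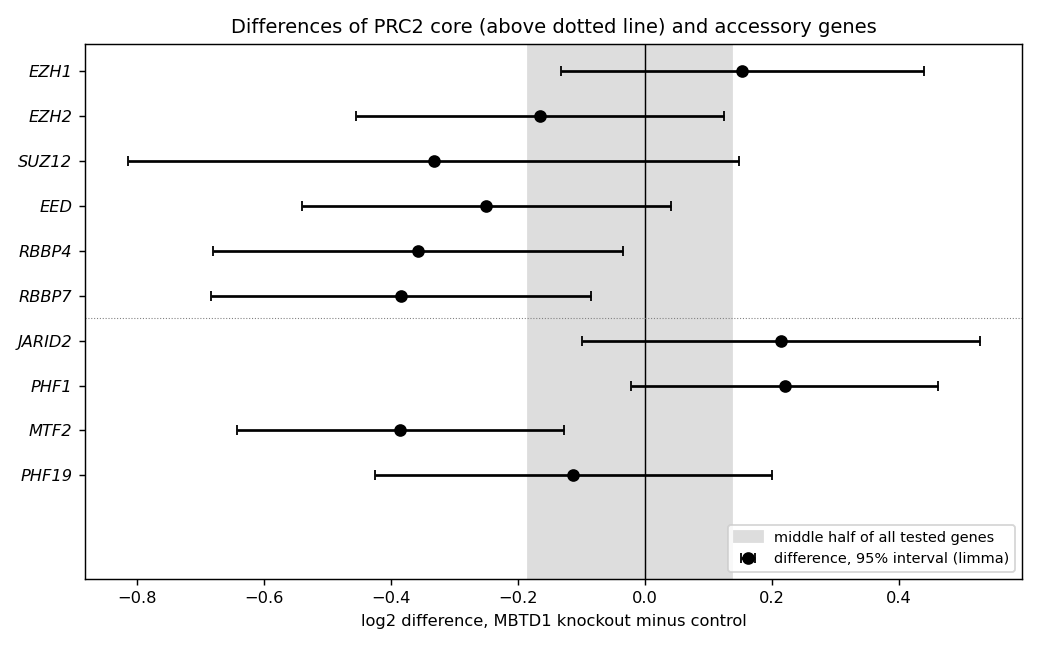
Log2 difference of MBTD1 knockout minus control (horizontal axis) for each PRC2 gene with its 95% interval from limma; the shaded band holds the middle 50% of all tested genes, from -0.18 to 0.14. The intervals of RBBP4, RBBP7 and MTF2 lie below 0, those of the other 7 genes include it, and none of the 10 passed after adjustment over all genes.

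With the settings used throughout, no interval reached a log2 difference of 1 in either direction: the widest, that of SUZ12, ended at -0.81. The offset compresses differences of dim rows, most of all EZH1, EZH2, EED and PHF1. For a dim row the interval therefore does not bound the change in signal over background. EZH1 stood 0.883 to 6.99 units over background in the control clones and 5.68 to 10.2 in the knockout clones. Its interval nevertheless ended at 0.44. The median standard error was 0.13 over the 10 genes and 0.14 over all tested genes. The direction of each of the 10 differences was kept in every one of the 14 alternative settings in which the gene was tested. Part of this was fixed in advance. A changed filter, or the replicate number as a block, leaves the difference itself the same. Leaving out an array cannot turn the direction of a gene whose groups do not overlap. Limma's adjusted p never fell below 0.0912, for MTF2 with an offset of 50. The size depended on the background model. With limma's default background fit, the differences of the 9 genes other than SUZ12 shrank to between -0.11 and 0.02. That fit compresses dim rows, so these values do not bound the change of the 9 genes either. The SUZ12 difference under it was -0.52 with an SE of 0.40, too wide to leave out a difference of 1.

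**Figure D3:**
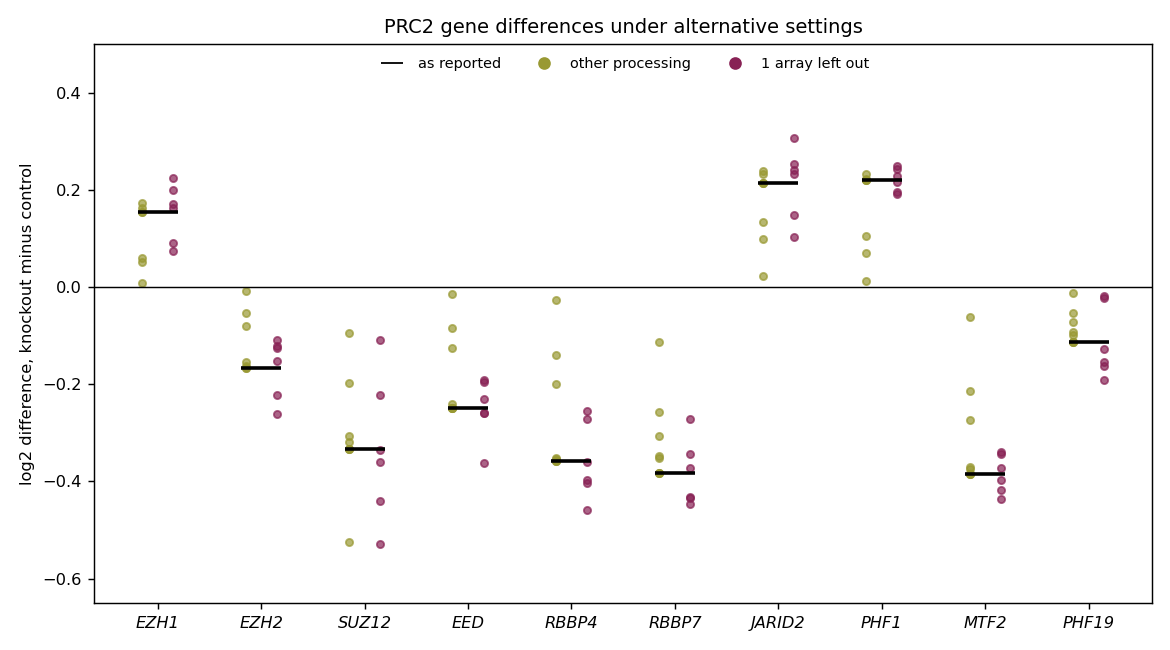
Log2 difference of knockout minus control (vertical axis) for each PRC2 gene as reported (bars), under other processing settings and with 1 array left out (points). Points stay on 1 side of 0 for every gene, and those of SUZ12 run from -0.53 to -0.09. A changed filter or the replicate number as a block leaves a point at the reported value.

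Paralogs that replace each other in the complex were compared within each array, as the log2 ratio of their rows, which cancels effects shared by both. The ratio itself depends on the probes and says nothing of which paralog is more abundant, so only its difference between groups is used. Of 5 pairs, 2 had ratios that did not overlap between the groups, as did 27.4% of the ratios of all pairs of tested genes. The 3 pairs of Polycomb-like genes are formed from 3 rows and are not separate measurements. With 3 against 3 arrays an exact 2-sided permutation test cannot give a p under 0.1. MTF2 minus PHF1 was 1.65, 1.78 and 1.77 in the control clones, against 1.16, 1.18 and 1.04 in the knockout clones. The ratio was 0.60 lower in the knockout clones, 1.52-fold, with SDs of 0.07 and 0.08 (exact permutation p = 0.1, adjusted over the 5 pairs 0.25, n = 3 each). MTF2 was already lower and PHF1 higher in every knockout clone. This ratio therefore had to separate the groups, and it adds no result to those of the single genes. EZH2 minus EZH1 was 0.62, 0.98 and 0.61 in the control clones, against 0.40, 0.48 and 0.37 in the knockout clones, 0.32 lower in the knockout clones (exact permutation p = 0.1, adjusted 0.25, n = 3 each). Control 2 was the highest of these ratios, and without it the ratio differed by -0.20. By its detection p EZH1 was not above background in control clones 2 and 3, where it stood 0.883 and 4.76 intensity units over it. These ratios thus rest in part on an EZH1 row at background level, which passed the detection filter through the knockout clones. EZH2 in knockout 1 also lacked a detection p under 0.05, but stood 12.7 units over background in a row averaging several probes.

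The other pairs overlapped. RBBP4 minus RBBP7 differed by 0.03 between the groups (exact permutation p = 0.9, n = 3 each), with knockout clones at -1.54, -1.92 and -1.39 on either side of the controls, and its sign turned with the scaling. MTF2 minus PHF19 differed by -0.27 and PHF19 minus PHF1 by -0.33 (exact permutation p = 0.2 for each, n = 3 each). Without control 2 the MTF2 to PHF19 difference was -0.15. The MTF2 to PHF1 difference was -0.64 to -0.56 when any 1 array was left out, and -0.07 with limma's default background fit, under which the EZH2 to EZH1 difference was -0.02.

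**Figure D4:**
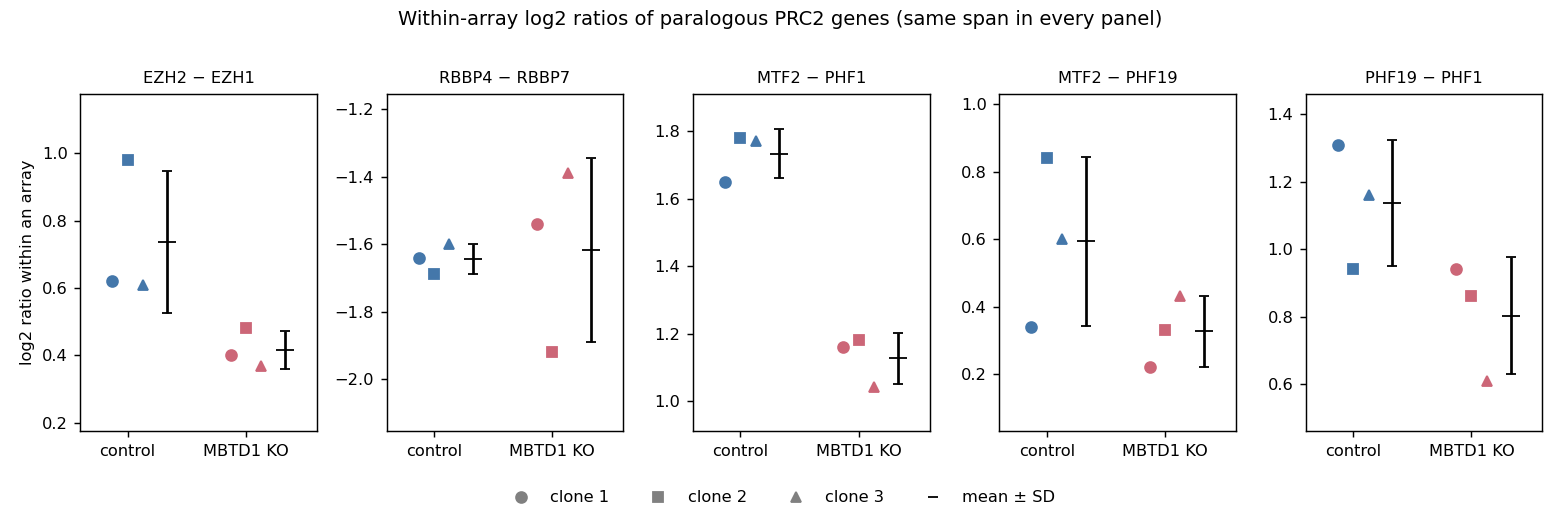
Within-array log2 ratio (vertical axis) of 5 paralog pairs on each control and MBTD1 knockout array; marker shapes give the clone number and bars the mean ± SD (n = 3). The MTF2 to PHF1 ratio lies at 1.65 to 1.78 in the control clones, against 1.04 to 1.18 in the knockout clones, and the EZH2 to EZH1 ratio is also lower in all 3 knockout clones.

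Across arrays, 5 of the 6 core genes were highest in control 2, where EZH1 was lowest. The median deviation of the 6 core genes from their mean over arrays was 0.08, 0.30 and 0.08 in the control clones, against -0.19, -0.02 and -0.13 in the knockout clones. For the 14 tested S phase genes the same measure was -0.05, 0.26 and 0.09 in the control clones, against -0.30, 0.13 and -0.16 in the knockout clones, so control 2 was highest and knockout 1 lowest in both lists, and the part of S phase transcripts in the PRC2 values was not tested. The 4 accessory genes showed no such order, at 0.03, -0.08 and 0.05 against 0.03, 0.10 and -0.09. A high control 2 was not particular to PRC2 core and S phase genes. It was also highest for the osteoblast and mesenchymal markers (0.09). Of the lists described below, it was highest for E2F and RB genes (0.24) and genes that PRC2 silences elsewhere (0.06). For other complexes of RBBP4 and RBBP7 it was not (-0.005, against 0.13 in knockout 2). The profile most like that of EZH2 over the 6 arrays, by Pearson's r among all tested genes, was that of PLOD3 (r = 0.996), followed by C17orf53 (0.990), MERTK (0.988), RND2 (0.982) and TMTC4 (0.977). These 5 are the extreme of 13144 comparisons over 6 arrays and are given as a description only.

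Genes that work with or against PRC2 were taken from lists chosen by function. Of all tested genes 1.57% passed, so 0 calls in lists this short is near that share. Of 5 further accessory genes, all tested, 0 passed. C17orf96, also called EPOP, an elongin-binding partner of MTF2-containing PRC2, measured 5.02, 4.89 and 4.80 in the control clones, against 5.39, 5.66 and 5.19 in the knockout clones. All 3 knockout clones were above the controls, with a difference of 0.51 (SE 0.14; limma adjusted p = 0.0997). AEBP2, the partner of JARID2, and LCOR differed by -0.27 each, and by -0.12 and -0.11 without control 2. Without knockout 3 the AEBP2 difference was -0.13, and without control 1 that of LCOR was -0.40. For the enzymes that remove H3K27 methylation or acetylate the same residue, 3 of 4 were tested and 0 passed. CREBBP, an acetyltransferase, measured 6.48, 6.34 and 6.56 in the control clones, against 6.95, 7.16 and 6.96 in the knockout clones, 0.57 higher with groups that did not overlap (SE 0.12; limma adjusted p = 0.0564). It passed after common-median scaling (limma adjusted p = 0.0339), with cyclic loess (0.0449) and under the stricter detection filter (0.0475), where fewer genes were tested; over the 14 alternatives its adjusted p ran from 0.0339 to 0.193. Its paralog EP300 differed by -0.15 (-0.0633 without control 2 and -0.28 without control 1) and the demethylase UTX (KDM6A) by 0.03. Of 5 methyltransferases of H3K36, a mark that hinders PRC2, only SETD2 was bright enough to be tested, at a difference of 0.09.

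RBBP4 and RBBP7 also serve in chromatin assembly, histone deacetylase and DREAM complexes, and of 16 tested genes of those complexes 1 passed. MTA2, a subunit of the NuRD deacetylase complex, rose 2.11-fold, from 5.70, 5.69 and 5.75 in control clones to 6.91, 6.77 and 6.69 in the knockout clones (log2 difference 1.08, SE 0.11; limma adjusted p = 0.00739). It did not pass without control 3 (limma adjusted p = 0.0715) or with limma's default background fit, where its difference was 0.16 (limma adjusted p = 0.0767), and passed in the other 12 alternatives, with an adjusted p down to 0.00405. MTA1 differed by 0.43 and HDAC1 by -0.34 without passing, and the list had 8 positive and 8 negative differences with a median of -0.01. Of 8 tested E2F and RB genes 0 passed, 6 were negative and the median was -0.17, with RB1 at -0.31, E2F2 at -0.28 and TFDP1 at -0.34 (-0.21 without control 2 and -0.22 without knockout 1). Of the 14 S phase genes 0 passed, 12 were negative and the median was -0.22, with RRM1 at -0.57, RRM2 at -0.68 (-0.43 without knockout 1) and MCM2 at 0.41. Over all tested genes 1.57% passed, 53.8% were negative and the median was -0.02. In lists this short, 0 calls is near that share and says nothing particular to the list.

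Genes that PRC2 commonly silences in other cell types gave no call. Of 35 such developmental regulators and tumour suppressors, 10 to 14 per array were above background, 13 were tested and 0 passed. With 1.57% of all tested genes passing, 0 of 13 is near that share and says nothing particular to this list. The 13 genes had 3 positive and 10 negative differences, with a median of -0.11 and a range of -0.50 to 0.10. Over all tested genes 53.8% of differences were negative. TBX15, a T-box factor, measured 5.21, 4.73 and 4.97 in the control clones, against 4.25, 4.60 and 4.56 in the knockout clones, a difference of -0.50 (SE 0.16; limma adjusted p = 0.123). WNT5A, a secreted ligand, and SLIT2, a guidance cue, differed by -0.31 and -0.22. Without control 2 the WNT5A difference was -0.11, and that of SLIT2 was -0.13 without knockout 3 and -0.35 without knockout 1. H3K27 methylation itself was not measured, and whether these genes carry the mark in U2OS is not stated in the sources used here.

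**Figure D5:**
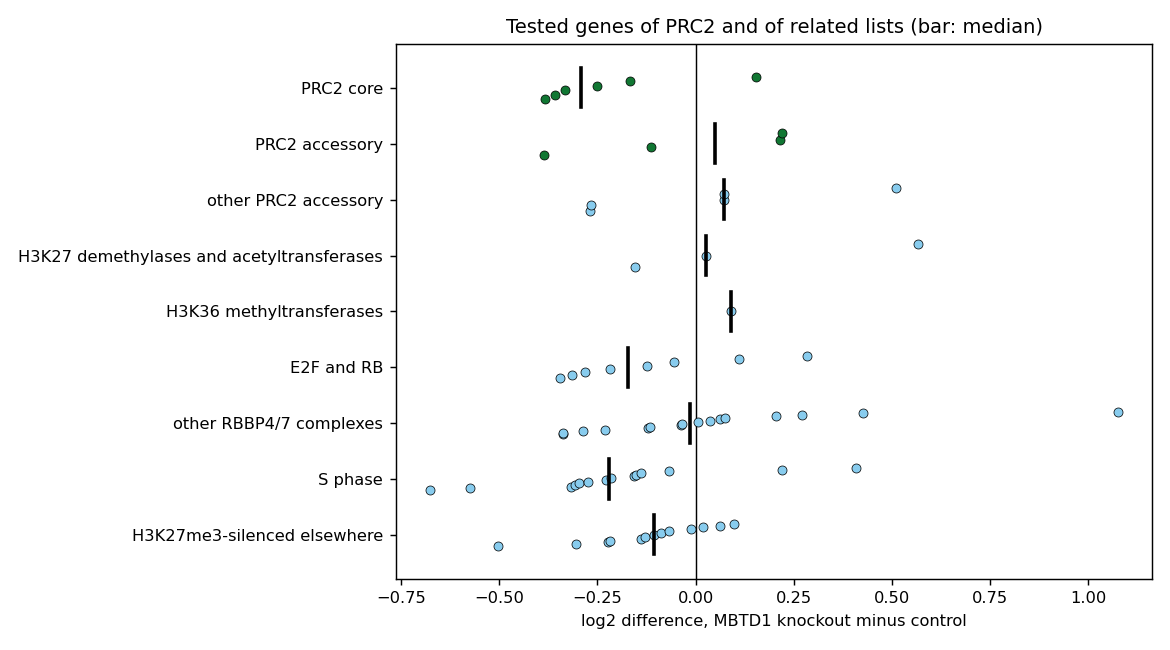
Log2 difference of knockout minus control (horizontal axis) of every tested gene in the PRC2 lists (dark points) and in lists of related genes (light points); vertical bars mark the medians. The PRC2 core median is -0.29, the S phase median -0.22, and MTA2 at 1.08 is the only gene shown that passed the test.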

How the data were processed

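Total RNA of 6 U2OS clones was hybridised to Illumina bead arrays. The authors deposited the mean bead intensity per gene row on a linear scale, with no background subtraction or normalization. Beside each intensity, per the file headers, stand a detection p-value against background, the standard error of the bead signal and the mean number of beads. A second deposited table holds log2 values with the same distribution in every array (median 6.426). Per the submitters' processing notes lumi and limma were used, without versions or roles; the summarising software is not stated. Columns were assigned to clones by the sample numbers in the labels, and 0 further per-sample columns exist.

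Of 34694 rows, 92 spike-in rows were left out of tests and 27 names turned into dates were restored. With limma 3.58.1 in R 4.3.3, normexp background was fitted on the 27408 rows (79.0%) with detection p-values at whole steps of 1/770 within 0.001 of a step, since averaged rows do not mark 1 probe's place among background beads; this fit was taken knowing that the default fit on all rows, kept as an alternative, calls 0 genes. Values with an offset of 16 were put on the log2 scale and quantile normalized. Rows with a detection p under 0.05 on at least 3 arrays (13145) were tested with lmFit and eBayes (2-sided, Benjamini-Hochberg over all tested genes, threshold 0.05) without covariates. The fit was tested on simulated data. Paralog ratios were compared with an exact permutation test over arrays. The number of arrays limits precision.

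Members, lists, model and alternatives were chosen with earlier results of these data known. Named are all 10 members, and of each related list the genes past the threshold and up to 3 with the smallest p. Symbols were matched directly or, for KDM6A, through a RefSeq synonym.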

Additional observations from a re-analysis of the deposited data

How the results depend on the processing

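Each of the 10 PRC2 differences kept its sign and stayed short of the threshold in all alternatives in which the gene was tested. A changed filter, or the replicate number as a block, could not turn a sign, since the difference stays the same. The count of PRC2 genes past the threshold was 0 in each alternative. EZH1 and EZH2 were not tested under a detection p below 0.01 on all 6 arrays. The median over the 10 genes, -0.21, was -0.0137 with limma's default background fit, whose background SD of 114 to 164 units compresses dim rows, -0.0698 in the deposited log2 table, -0.10 with an offset of 50 and -0.13 after common-median scaling; leaving out 1 array gave -0.26 to -0.16. The number of all genes past the threshold, 207 (158 higher, 49 lower), was less stable: 588 after common-median scaling (556 higher, 32 lower), 288 with cyclic loess (249 higher, 39 lower), 0 with the default background fit (2260 genes at an unadjusted p under 0.05), 64 in the deposited log2 table, 361 under the stricter detection filter, 4 with no filter, 61 with an offset of 50, and 0 to 578 when 1 array was left out. It was 0 without control 3 (1919 at an unadjusted p under 0.05), 578 without control 1, and 50, 50 and 51 without control 2, knockout 2 and knockout 3. With the replicate number as a block it was 122 (108 higher, 14 lower), and no PRC2 call changed. Over all tested genes, deviations of same-numbered clones from their group means correlated at 0.0656, 0.0153 and 0.0187. Control 3 correlated best with knockout 2, at 0.062. These weak values give little sign of pairing by number, but they cannot exclude an effect shared by same-numbered clones in some genes. The cause of these changes in the number of genes was not tested. The RBBP4 to RBBP7 ratio difference, 0.03, turned to -0.00512 with common-median scaling and -0.000195 with cyclic loess, and ran from -0.0859 to 0.179 when 1 array was left out, with -0.0148 without knockout 1 and -0.0859 without knockout 3. The other 4 ratios kept their sign. When 1 array was left out, SETD2 ran from -0.0552 (without knockout 3) to 0.289, and UTX from -0.0840 (without knockout 3) to 0.124, with -0.0467 without control 3. Common-median scaling also moved HDAC1 to -0.0716, E2F2 to -0.12, TFDP1 to -0.17 and RRM1 to -0.36. Low signal over background limits EZH1, EZH2, EED and PHF1, and to a lesser degree RBBP4.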
